A study of Caenorhabditis elegans with 20 samples.

Results

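The genes described here are 38 germline, oocyte and meiosis genes of the nematode Caenorhabditis elegans, out of 18917 genes in the deposited tables. They were chosen by name, and each one was found in at least 1 table. They fall into 5 roles: 9 RNA regulators of the germline stem cell and oocyte program, 8 RNA-binding proteins of the oocyte and early embryo, 8 components of P granules and other germline RNA particles, 7 genes of the eggshell and egg surface, and 6 genes of the meiotic chromosome. All 38 were tested in every purification except muscle, where 37 were, because glp-1 is absent from the table of muscle replicate 1.

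The series used translating ribosome affinity purification (TRAP), in which tagged ribosomes of one cell type are pulled from a lysate of whole animals and the transcripts bound to them are sequenced. The strains were JAC379 for dopamine neurons, JAC433 for serotonin neurons, JAC126 for neurons in general (neuronal), JAC127 for muscle and JAC382 for intestine. Each of the 5 strains gave 2 TRAP libraries and 2 polyA+ input libraries from whole animals, 20 libraries in all. All animals were bleach-synchronised L4 larvae grown at 22 °C on OP50-1 bacteria and harvested between 46 and 48 h after release from L1 arrest. The promoter that drives the tagged ribosome in each strain is not given in the sources used here, nor is any other allele of the strains.

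In the hermaphrodite gonad, germ cells divide at the distal end under Notch signalling, enter meiosis, pass through pachytene and mature as oocytes nearer the uterus. Many of the genes that run this program encode RNA-binding proteins, which hold maternal transcripts silent until the oocyte or embryo needs them. In hermaphrodites the gonad makes sperm first, in the fourth larval stage, and then turns to oocytes around the move to adulthood. Germ cells are neither neurons, muscle nor intestine, and the question put to the data is how much of each germline transcript came down in each purification relative to the whole animal.

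Levels are RPKM, reads scaled to transcript length and to library size, which can be compared between genes. A change is the difference of log2(RPKM + 1), TRAP minus input, so it understates the change of low genes. The shallowest library, neuronal input replicate 1, held 4.46 M recovered reads on listed genes, and the deepest, dopamine input replicate 1, held 239.7 M. The members had 30 to 148269 reads per library. The purifications carried markers of their labels to different degrees. The 10 muscle markers summed to 122479 and 113339 RPKM in muscle TRAP, against 13832 and 9222 in muscle input, and the 10 neuron markers to 14615 and 6228 in neuronal TRAP, against 482 and 107 in neuronal input. The 10 intestine markers summed to 15595.9 and 27872.5 RPKM in intestine TRAP, against 5731 and 6064 in intestine input. The 5 serotonin neuron markers summed to 227 and 85.9 RPKM in serotonin TRAP, against 335 and 169 in serotonin input. Their changes were above 0 in both replicates for 3 and below 0 in both for 1. In dopamine TRAP the tyrosine hydroxylase gene cat-2, which defines dopamine neurons, had 30.5 and 4.57 RPKM, against 0.503 and 0.486 in dopamine input. The 10 dopamine neuron markers together summed to 173 and 50.02 RPKM in dopamine TRAP, against 297 and 126 in dopamine input. Still, 8 of the 10 had a change above 0, with a median of 1.24. With replicates paired 6 rose and 2 fell, where 8.44% of all genes rose and 30.5% fell. The input sums were mostly cat-4, an enzyme gene used by serotonin neurons as well, which had 36.7 and 13.4 RPKM in dopamine TRAP, against 260.1 and 79.7 in dopamine input. The 10 neuron markers summed to 720 and 307 RPKM in dopamine TRAP, against 318 and 411 in dopamine input. Of these 10, 3 had a change above 0 in both replicates and 5 below 0 in both. Dopamine TRAP replicate 2 stands apart by composition: the myosin gene unc-54, singled out after its values were seen, took 20.5% of its recovered reads, against 0.259% in dopamine TRAP replicate 1.

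Members differed widely in level. Over the 20 libraries the mean was highest for car-1, with 247 RPKM, and cgh-1, with 188 RPKM, both proteins of germline and other RNA particles. The lowest, over the libraries that list it, was 4.64 RPKM for glp-1, the Notch receptor that keeps germ cells dividing. Among the RNA-binding proteins of the oocyte and embryo, pos-1 averaged 73.4 RPKM and spn-4 56.9 RPKM, and among the meiotic genes the axis proteins him-3 and htp-1 averaged 75.0 and 69.9 RPKM.

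Oocyte and eggshell genes had the largest median differences between replicates of the 5 roles in the serotonin, neuronal, muscle and intestine strains, in TRAP and in input. In dopamine TRAP they did not: replicate 2 minus replicate 1 had a median of 0.05 and 0.16 on the log2 scale for these roles, and of 1.51 for the P granule genes. In dopamine input it was -0.45 and -0.67 for these roles, 0.44 for the P granule genes and -0.44 over all genes. In dopamine TRAP the 8 oocyte and embryo RNA-binding genes summed to 357 and 366 RPKM, against 106 and 66.2 in dopamine input. They summed to 894 and 115 RPKM in serotonin TRAP, against 279.7 and 31.9 in serotonin input, and to 339 and 67.7 RPKM in neuronal TRAP, against 529 and 25.1 in neuronal input. In muscle TRAP the sums were 23.0 and 337 RPKM, against 31.6 and 1071 in muscle input. In intestine TRAP they were 251 and 32.8 RPKM, against 514 and 39.3 in intestine input. Thus 4 of the strains had 1 replicate rich and 1 poor in these transcripts, the same one in TRAP and in input. Both dopamine inputs lay between these extremes, and the dopamine TRAP sums were nearly equal. Replicate 2 minus replicate 1 of input had an all-gene median of -1.43 in neuronal, 1.33 in muscle, -0.08 in serotonin and 0.18 in intestine. For the oocyte and embryo RNA-binding genes it was -3.59, 4.94, -3.03 and -3.42 in the same order. The part of the all-gene shift in these differences was not tested.

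Meiotic and P granule genes varied less. The 10 input sums of the meiotic genes spanned 76.5 to 457 RPKM, a 5.98-fold range, and those of the P granule genes a 5.81-fold range. The RNA regulators spanned 11.4-fold, the oocyte and embryo RNA-binding genes 42.7-fold and the eggshell genes 73.0-fold. For every role the lowest sum was in neuronal input replicate 2. Markers of other tissues spanned 1.81-fold (muscle), 2.68-fold (intestine), 7.07-fold (neuron) and 10.4-fold (epidermis), so the meiotic and P granule ranges were not unlike theirs. Among single members the input range ran from 3.05-fold for fbf-2 to 299.6-fold for perm-4. Yolk genes, made in the intestine of animals that have begun to mature oocytes, also differed between replicates. In the 4 strains with a rich and a poor replicate, the yolk sum was higher in the input of the same replicate as the oocyte sum, though the libraries at the extremes were not the same. The 6 yolk genes summed to 23.3 and 31.0 RPKM in dopamine input, 311 and 7.79 in serotonin input, 1132 and 1.65 in neuronal input, 1.09 and 336 in muscle input and 1326 and 14.9 in intestine input. How far the yolk and oocyte differences share a source was not tested.

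**Figure D1:**
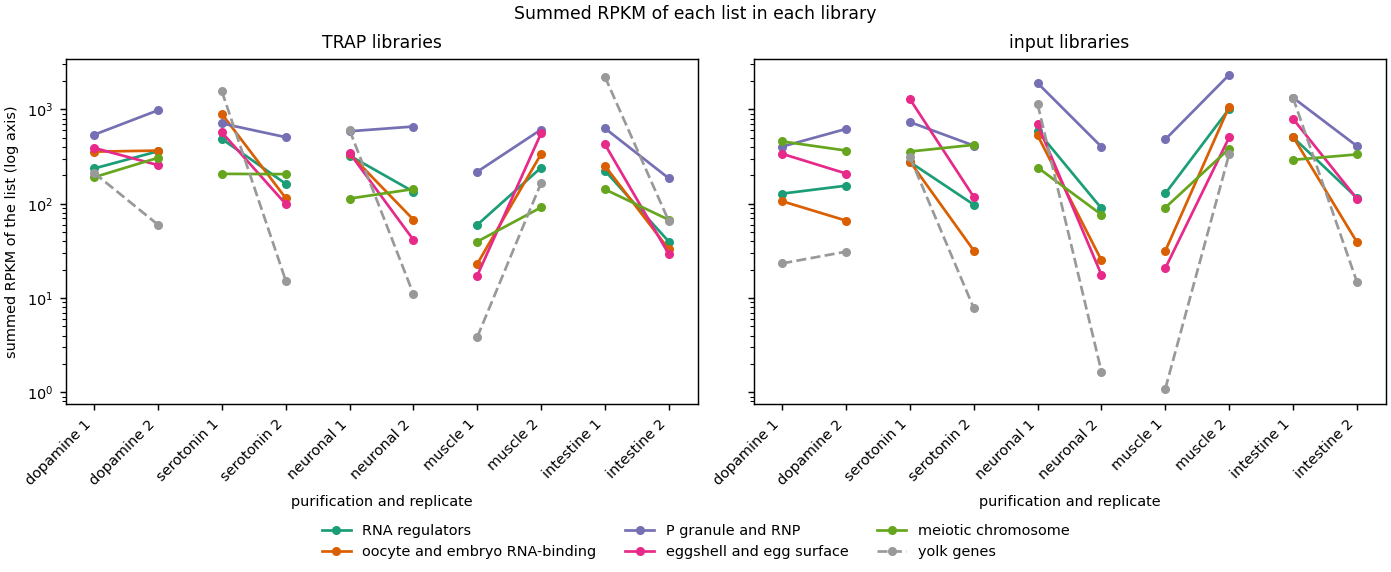
Summed RPKM (log axis) of the 5 role lists and of the yolk genes in each TRAP library (left) and each input library (right), with a line joining the 2 replicates of a strain. The oocyte and embryo RNA-binding genes span 25.1 to 1071 RPKM in the inputs, while the meiotic genes stay between 76.5 and 457 RPKM and the P granule genes between 401 and 2328 RPKM.

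In the dopamine purification the oocyte and embryo RNA-binding genes were mostly higher in TRAP than in the input, while the meiotic genes were not. The median change was 2.31 for the 8 oocyte and embryo RNA-binding genes, 1.05 for the 9 RNA regulators, 0.72 for the 7 eggshell genes, 0.42 for the 8 P granule genes and -0.44 for the 6 meiotic genes. The median was 0.86 over the 38 members and -0.60 over all 14400 genes tested. Scaling each library by relative log expression (RLE) moves the median of all genes to -0.06 and that of the meiotic genes to 0.16, so the sign of the meiotic median depends on the scaling. In bulk lysates, fewer cells of a type and less RNA per cell cannot be told apart.

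Without the pairing of replicates, limma called none of the 38 members and none of the 14400 genes at an adjusted p below 0.05 (0% of genes in each direction), though 14 members were higher (against 6.02% of all genes) and 2 lower (against 21.9%) at an unadjusted p below 0.05. edgeR on the recovered reads called none either. The deposited headers set TRAP and input of a replicate side by side. With that replicate as a block, limma called 15 members higher (39.5%, against 8.44% of all genes) and 3 lower (7.89%, against 30.5% of all genes). With the block and RLE scaling it called 21 higher and none lower, against 18.6% and 17.3% of all genes. The blocked fit of this purification leaves 1 residual degree of freedom per gene, and its spread is pooled over genes to the point that disagreement between a gene's own replicates does not enter its p. The pooling was as complete in the blocked fits of neuronal, muscle and intestine and of dopamine against each of these 3, and in the unblocked fits of neuronal and muscle. It was nearly so in the unblocked intestine fit, with 568 prior degrees of freedom. In the raw values, both TRAP libraries lay above both inputs for 18 members, where 16.8% of all genes did so, and below both inputs for 3 members, against 43% of all genes.

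The oocyte and embryo RNA-binding genes rose in 7 of 8 cases with the block. These proteins bind maternal transcripts or set up polarity in the zygote. mex-1, a zinc finger protein of the embryonic germ lineage, had 36.8 and 35.1 RPKM in dopamine TRAP, against 1.61 and 4.37 in dopamine input. Its change was 3.30 ± 0.64 (SE without the block, n = 2 and 2), with a limma adjusted p of 0.085 without the block and 2.4e-07 with it. mex-5, which polarises the zygote, had 46.3 and 70.9 RPKM in the TRAP pair, against 4.73 and 11.2 in the inputs, a change of 2.80 ± 0.61 (limma adjusted p 0.085, with the block 1.61e-06).

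The oocyte maturation factor oma-2 had 32.0 and 41.4 RPKM in the TRAP pair, against 6.39 and 4.16 in the inputs, a change of 2.60 ± 0.58 (limma adjusted p 0.085, with the block 2.9e-05). pos-1, needed for the fate of posterior blastomeres, had 92.2 and 58.7 RPKM in the TRAP pair, against 22.4 and 9.68 in the inputs, a change of 2.24 ± 0.59 (limma adjusted p 0.0892, with the block 6.17e-05). spn-4 had 60.96 and 66.9 RPKM in the TRAP pair, against 18.8 and 14.2 in the inputs, a change of 1.90 ± 0.51 (limma adjusted p 0.0894, with the block 0.000701). For each of these 5 genes the 2 TRAP values lay above both input values. oma-1 and pie-1 rose as well, by 1.68 and 2.37. The exception was mex-6, a close relative of mex-5, with 31.5 and 30.8 RPKM in the TRAP pair, against 35.4 and 9.87 in the inputs, and a limma adjusted p of 0.264 with the block. oma-1 and oma-2, and mex-5 and mex-6, are pairs of related genes, and how any reads shared within a pair were counted is not given in the sources used here.

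**Figure D2:**
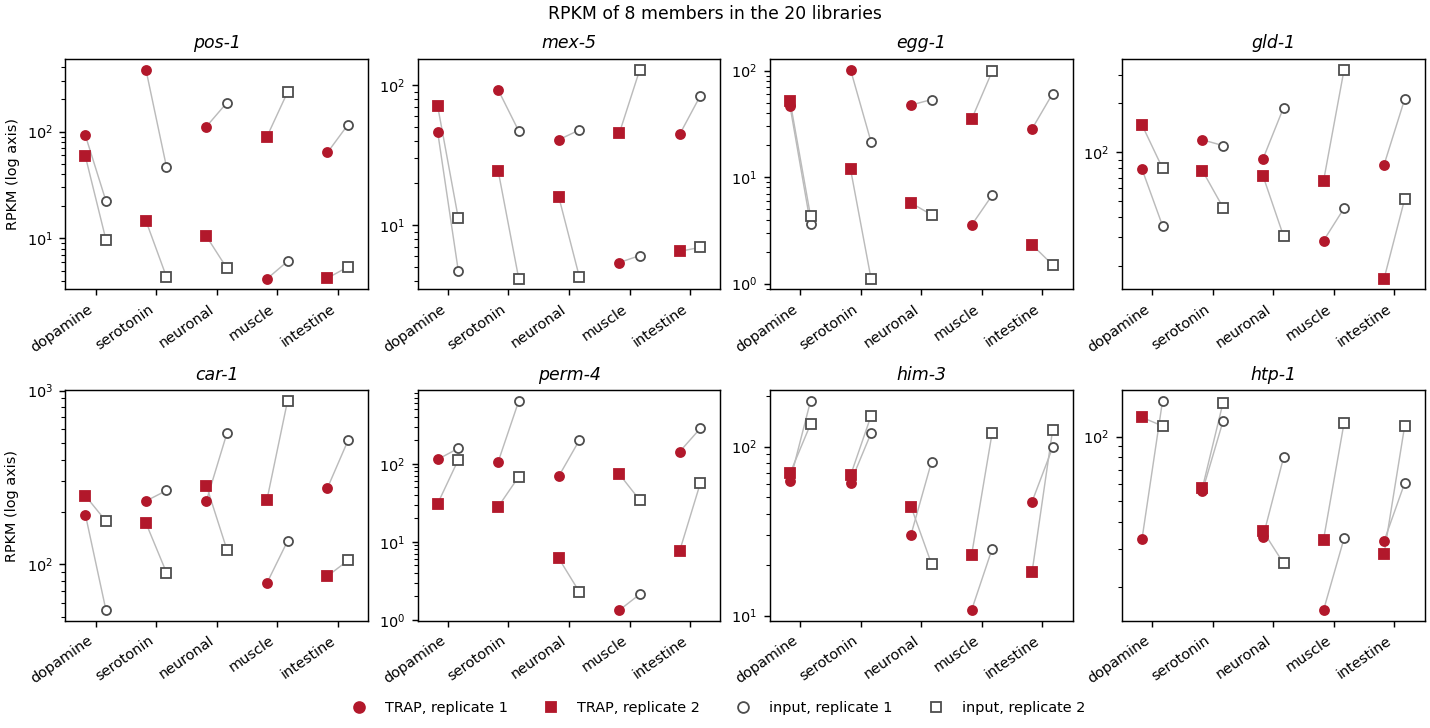
RPKM (log axis) of 8 members in all 20 libraries, TRAP in filled red and input in open grey, circles for replicate 1 and squares for replicate 2, with a line joining TRAP and input of a replicate. For pos-1, mex-5 and egg-1 the 2 dopamine TRAP values lie above both dopamine inputs, while for him-3 they lie below both.

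Of the egg surface genes, 3 of 7 rose with the block and none fell. egg-1, an oocyte membrane protein needed for fertilisation, had 46.7 and 52.2 RPKM in dopamine TRAP, against 3.60 and 4.30 in dopamine input, and its change of 3.35 ± 0.56 was the largest of the 38 (limma adjusted p 0.085, with the block 5.2e-08). The eggshell chitin-binding gene cbd-1 had 54.5 and 87.2 RPKM in the TRAP pair, against 9.91 and 11.5 in the inputs, a change of 2.58 ± 0.53 (limma adjusted p 0.085, with the block 5.11e-06). egg-2, a near copy of egg-1, rose by 1.84. These 3 genes were separated between TRAP and input in the raw values.

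The permeability barrier genes perm-2 and perm-4 had changes below 0 that passed neither fit. They are neighbours in the RefSeq gene order of WBcel235, with 0 protein-coding genes between them. perm-2 had 120.3 and 25.2 RPKM in dopamine TRAP, against 105 and 65.8 in dopamine input, and perm-4 had 114 and 30.9 RPKM in the TRAP pair, against 158 and 112 in the inputs. Their changes were -0.58 ± 0.75 and -1.15 ± 0.69, with limma adjusted p of 0.346 and 0.0551 with the block, and TRAP and input overlapped for perm-2 and perm-4. egg-3 and gna-2 passed neither fit, with changes of 0.72 and 0.39.

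Among the RNA regulators 4 of 9 rose and 1 fell with the block. The risers were mex-3, by 1.39, and the Pumilio-family genes puf-3, puf-5 and puf-11, by 2.50, 1.85 and 2.01, of which puf-3 and puf-11 are near copies. puf-5, active in late oogenesis, had 26.8 and 19.6 RPKM in dopamine TRAP, against 9.27 and 3.29 in dopamine input (limma adjusted p 0.13, with the block 0.00415). gld-1, a translational repressor of pachytene germ cells, had 79.0 and 147 RPKM in the TRAP pair, against 35.4 and 79.8 in the inputs, with a change of 1.01 ± 0.61 that passed neither fit (limma adjusted p 0.3, with the block 0.0894). fbf-2, which represses meiotic entry in stem cells, fell: it had 3.73 and 11.8 RPKM in the TRAP pair, against 20.2 and 19.3 in the inputs, a change of -1.41 ± 0.68 (limma adjusted p 0.212, with the block 0.0306), the lowest of the 38 and not called with RLE scaling. Its near copy fbf-1 did not pass, at -0.13. glp-1 was not called either, though its TRAP values, 4.80 and 14.1 RPKM, lay above both inputs, 3.41 and 3.61.

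Of the 8 P granule genes 1 rose with the block and none fell. deps-1, which is needed for P granule assembly, rose by 1.46 with the block (limma adjusted p 0.0254), with 10.95 and 37.0 RPKM in dopamine TRAP, against 2.53 and 16.1 in dopamine input. car-1 had 193 and 248 RPKM in the TRAP pair, against 54.5 and 177 in the inputs, and a change of 1.15 ± 0.68 (limma adjusted p with the block 0.0826). cgh-1, an RNA helicase, had 166 and 142 RPKM in the TRAP pair, against 123 and 110.2 in the inputs, and a change of 0.40 ± 0.52 (limma adjusted p with the block 0.58). Both TRAP values lay above both inputs for car-1 and cgh-1, so the raw values were separated without passing either fit. The core P granule genes pgl-1, pgl-3, glh-1, glh-2 and glh-4 had changes between -0.33 and 0.51, none called.

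Of the 6 meiotic chromosome genes 2 fell with the block, 33.3% where 30.5% of all genes fell, and none rose. him-3, an axis protein on which the synaptonemal complex is built, had 62.4 and 69.4 RPKM in dopamine TRAP, against 186 and 136 in dopamine input, a change of -1.26 ± 0.51 (limma adjusted p 0.161, with the block 0.0382). syp-2, of the central part of that complex, had 24.2 and 35.5 RPKM in the TRAP pair, against 73.8 and 63.2 in the inputs, a change of -1.19 ± 0.51 (limma adjusted p 0.174, with the block 0.0359). Both TRAP values lay below both inputs for him-3 and syp-2, and neither was called with RLE scaling. htp-1 did not pass, with 33.3 and 123 RPKM in the TRAP pair, against 147 and 112 in the inputs, and its reads could be split with its near copy htp-2. htp-3, syp-1 and the meiotic cohesin gene rec-8 had changes of 1.07, 0.11 and 0.27, none called.

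Of the members, 3 pairs are adjacent in the RefSeq order. mex-5 and rec-8 had changes of 2.80 and 0.27, pgl-1 and him-3 of -0.33 and -1.26, and perm-2 and perm-4 of -0.58 and -1.15. Differences within pairs were not tested.

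**Figure D3:**
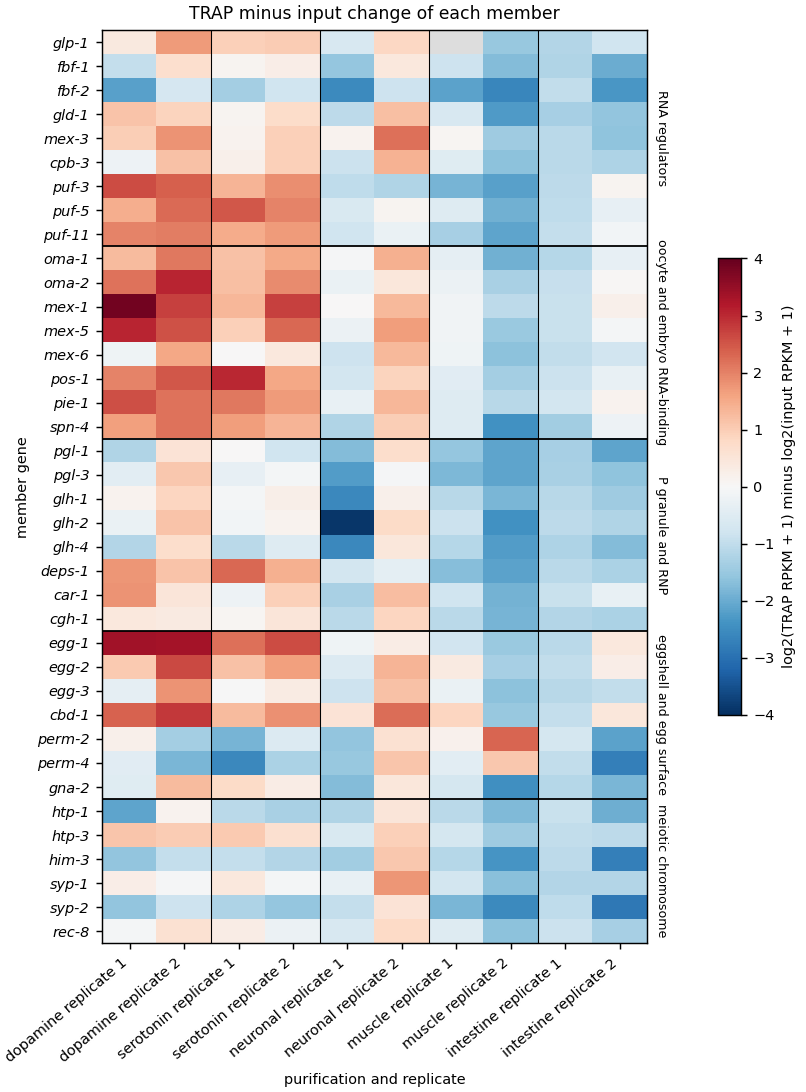
Change of each of the 38 members (rows, grouped by role) in each replicate of the 5 purifications (columns), as log2(TRAP RPKM + 1) minus log2(input RPKM + 1), red above 0 and blue below, with grey for glp-1 in muscle replicate 1, which is not listed. The oocyte and embryo RNA-binding rows are red in both dopamine and both serotonin replicates, apart from mex-6, and the intestine replicate 1 column is evenly blue, between -1.39 and -0.70.

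In the serotonin purification, too, the oocyte and embryo RNA-binding genes had the highest median change. Its medians were 1.59 for the oocyte and embryo RNA-binding genes, 0.57 for the RNA regulators, 0.53 for the eggshell genes, 0.05 for the P granule genes and -0.51 for the meiotic genes, against -0.44 over all 14587 genes tested. Without the block limma called no member and no gene (0%), with 1 member higher (against 7.55% of all genes) and 3 lower (against 20.1%) at an unadjusted p below 0.05, and edgeR called none. With the block it called 15 members higher (39.5%, against 9.77% of all genes) and 6 lower (15.8%, against 29% of all genes). Of the 15 members higher in the dopamine purification with the block, 14 were among the 15 higher in the serotonin purification, 93.3% of each list. Over all genes 762 were shared, which is 62.7% of the 1216 higher in dopamine and 53.5% of the 1425 higher in serotonin. These comparisons share no library.

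Replicate 2 minus replicate 1 of serotonin TRAP had a median of -2.20 for the oocyte and embryo RNA-binding genes and -2.41 for the eggshell genes, while the P granule and meiotic medians were -0.34 and 0.09. pos-1 had 382 and 14.6 RPKM in serotonin TRAP, against 46.6 and 4.35 in serotonin input, and egg-1 had 102 and 11.9 RPKM in the TRAP pair, against 21.4 and 1.11 in the inputs. The TRAP value exceeded its own input in both replicates for each, but replicate 2 TRAP lay below replicate 1 input. The changes were 2.28 ± 1.80 and 2.41 ± 1.48 (limma adjusted p 0.435 and 0.329, with the block 0.00645 and 0.00449). Both TRAP values lay above both inputs for 6 members, or 15.8% of them as 19.8% of all genes did, and below both inputs for 5 members, or 13.2% against 41.3% of all genes. perm-4 fell with the block by 1.91, with 106 and 28.1 RPKM in the TRAP pair, against 638 and 68.5 in the inputs (limma adjusted p 0.345, with the block 0.00961). perm-2, fbf-2, htp-1, him-3 and syp-2 fell as well with the block, and with RLE scaling added perm-4 and syp-2 were the 2 still called lower (against 20.3% of all genes), and 19 were called higher (against 17.7%).

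In the neuronal purification no member was called with or without the block (limma), and none had an unadjusted p below 0.05 in either fit (without the block 24.1% of genes were higher and 1.32% lower at that threshold), while 16.8% of genes were called higher and 0.588% lower without the block. edgeR called no gene. The medians ran from -0.81 for the P granule genes to 0.38 for the oocyte and embryo RNA-binding genes, all below the median of 0.81 over 13435 genes, and with RLE scaling from -1.92 to -0.57, with a median of -0.09 over all genes. With the block and RLE scaling limma called 15 members lower, against 15.2% of all genes, and none higher, against 24.4%. The 2 replicates disagreed: 3 of 38 members were above their input in replicate 1 and 33 of 38 in replicate 2, where 50% and 87.9% of all genes were above it. Both TRAP libraries lay above both inputs for no member, where 43% of all genes did so. They lay below both inputs for 3 members (7.89%, against 7.12% of all genes). pos-1 had 112 and 10.5 RPKM in neuronal TRAP, against 187 and 5.23 in neuronal input. Within the replicates its changes were -0.74 and 0.88.

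In the muscle purification the members were mostly lower in TRAP, with a median of -1.21 over 37 members and -0.56 over all 10048 genes tested, and 2 of 37 had a change above 0. limma called no member without the block, where 1.10% of genes were called higher and 0.945% lower, and 1 member was lower at an unadjusted p below 0.05 (against 6.2% of all genes). With the block it called puf-3, pgl-1 and cgh-1 lower (8.11%, against 4.27% of all genes) and none higher (against 3.26%). cgh-1 had 40.1 and 218 RPKM in muscle TRAP, against 85.9 and 797 in muscle input, a change of -1.47 ± 0.78 (limma adjusted p 0.46, with the block 0.0418). pgl-1, a core P granule protein, had 15.8 and 38.3 RPKM in the TRAP pair, against 48.4 and 169.6 in the inputs. puf-3 had 5.42 and 35.7 RPKM in the TRAP pair, against 22.4 and 165 in the inputs. edgeR called no member (2.85% of all genes were called higher, 0.0995% lower), nor did limma with RLE scaling and no block (2.87% higher, 0.149% lower). The members with a change above 0 were perm-2 and perm-4, at 1.26 and 0.33, neither called, though with the block and RLE scaling perm-2 was called higher (12.9% of all genes were) and 9 members lower (against 9.91%). In the raw values both TRAP libraries lay below both inputs for 10 members (27%, against 28.6% of all genes). They lay above both inputs for no member (against 13.2%).

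In the intestine purification every member had a change below 0, with a median of -1.12 over 38 members and -0.74 over all 14051 genes tested. Without the block limma called 3 members lower (7.89%, against 5.34% of all genes) and none higher (against 0.406%), and edgeR called none. perm-4 had 143 and 7.72 RPKM in intestine TRAP, against 284 and 56.5 in intestine input, a change of -1.85 ± 0.60 (limma adjusted p 0.0452). him-3 had 47.2 and 18.1 RPKM in the TRAP pair, against 98.9 and 126 in the inputs, a change of -1.89 ± 0.59 (limma adjusted p 0.0374). syp-2 had 21.1 and 7.62 RPKM in the TRAP pair, against 44.1 and 62.1 in the inputs, a change of -1.95 ± 0.61 (limma adjusted p 0.0374). Both TRAP values lay below both inputs for him-3 and syp-2 but not for perm-4. With RLE scaling none of the 3 calls held and no gene was called (0%), and the median of the oocyte and embryo RNA-binding genes turned to 0.19. Without intestine TRAP replicate 2 the change of perm-4 was 0.17.

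With the block 15 members were called lower in intestine (39.5%, against 20.9% of all genes), none of them oocyte and embryo RNA-binding genes, and none higher (against 2.26%). With RLE scaling added, pgl-1, perm-4, him-3 and syp-2 were still called lower (against 6.21%), and none higher (against 13.2%). The raw values went the other way: both TRAP libraries lay below both inputs for 9 members (23.7%, against 56.5% of all genes). They lay above both inputs for no member (against 8.3%). In replicate 1 the members fell into a narrow band: their changes lay between -1.39 and -0.70 with an SD of 0.16, against an SD of 0.66 over all genes. In replicate 2 they spread from -2.87 to 0.47, with an SD of 0.95. In replicates 1 and 2 pos-1 had changes of -0.86 and -0.29 and egg-1 of -1.07 and 0.41. him-3 had -1.05 and -2.73 and syp-2 had -1.03 and -2.87, at the bottom of the spread in replicate 2.

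The dopamine change was then set against each other change, as the dopamine change minus the other, in a model over the 8 libraries of both strains. The 4 comparisons share the dopamine libraries, so their calls are not independent. Against serotonin the median difference over 38 members was 0.42, with a median of -0.10 over 13931 genes. No member was called and none had an unadjusted p below 0.05 in limma, with or without the block, and edgeR called none. With the block limma called 0.0287% of all genes higher and 0.323% lower. For pos-1 the difference was -0.04, with an SE of 2.06 without the block and 0.59 with it, and for egg-1 it was 0.94, with an SE of 1.68 without the block and 0.57 with it.

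Against the neuronal change the median difference was 0.98 over 38 members and -1.43 over 12354 genes, a median of all genes that RLE scaling moves to -0.02, and that of the members to 2.51. limma called no member without the block (0.17% of all genes were called higher, 10.2% lower), with 1 member higher at an unadjusted p below 0.05 (against 1.66% of all genes), and edgeR called puf-3 higher (against 1.38%; 4.95% were lower). With the block limma called puf-3 and egg-1 higher (5.26%, against 1.25% of all genes). Their differences were 3.61 ± 1.41 and 3.28 ± 1.61 (limma adjusted p with the block 0.0161 and 0.0379). With the block and RLE scaling 23 were called higher, against 11.6% of all genes. In the blocked fit, leaving out either library of a pair gave the same difference, and here the same number of members called. Without dopamine TRAP replicate 1 no member was called (against 0.00809% of all genes higher), nor without dopamine TRAP replicate 2 (against 0.809%). Without neuronal TRAP replicate 1, 4 were called higher (against 1.96%) and 2 lower (against 58.1%), and without neuronal TRAP replicate 2, 14 higher (against 5.38%) and none lower (against 19.4%).

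Against the muscle change the median difference was 2.08 over 37 members and 0.00 over 9959 genes. No member was called without the block (0.281% of all genes were called higher, 1.27% lower), with 5 higher at an unadjusted p below 0.05 (against 5.46% of all genes), and edgeR called none (against 0.602% higher and 3.16% lower). With the block limma called 16 higher (43.2%, against 6.56% of all genes) and none lower (against 8.21%), among them 7 of 8 oocyte and embryo RNA-binding genes, 4 of 8 RNA regulators, 3 of 8 P granule genes, 2 of 7 eggshell genes and 0 of 6 meiotic genes. The difference was 4.52 ± 1.42 for puf-3, 4.47 ± 1.60 for egg-1 and 3.89 ± 1.96 for mex-1 (limma adjusted p with the block 1.08e-05, 4.52e-05 and 0.00158). For him-3 the difference was 0.48 ± 1.15 (limma adjusted p with the block 0.745). Without dopamine TRAP replicate 1 the blocked fit called no member (against 0.753% of all genes higher), and without dopamine input replicate 1 it called 2 higher (against 0.743%). Without dopamine TRAP replicate 2 it called 3 higher (against 3.58%). Without muscle TRAP replicate 1 it called 23 higher (against 11.1%) and 2 lower (against 5.81%), and without muscle TRAP replicate 2 it called 10 higher (against 5.17%). With the block and RLE scaling 21 were higher, against 11.8% of all genes.

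Against the intestine change the median difference was 1.83 over 38 members and 0.18 over 13696 genes, and all 38 members had a difference above 0. No member and no gene was called without the block (0%), with 6 members higher at an unadjusted p below 0.05 (against 7.43% of all genes), and edgeR called none. With the block limma called 18 higher (47.4%, against 7.43% of all genes) and none lower (against 6.46%). They were 7 of 8 oocyte and embryo RNA-binding genes, 6 of 9 RNA regulators, 3 of 7 eggshell genes, deps-1 of the 8 P granule genes and htp-3 of the 6 meiotic genes. The difference was 3.68 ± 1.77 for egg-1, 3.65 ± 1.42 for mex-1 and 3.29 ± 1.46 for mex-5 (limma adjusted p with the block 5.09e-05, 8.47e-05 and 0.000147). For perm-4 the difference was 0.70 ± 1.60 (limma adjusted p with the block 0.528). The blocked fit called 17 higher without dopamine TRAP replicate 1 (against 5.02% of all genes), 7 without dopamine TRAP replicate 2 (against 4%) and 11 without dopamine input replicate 2 (against 4.07%). It called 4 higher without intestine TRAP replicate 1 (against 1.77%) and 14 without intestine TRAP replicate 2 (against 3.47%). With the block and RLE scaling 20 were higher, against 9.02% of all genes.

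**Figure D4:**
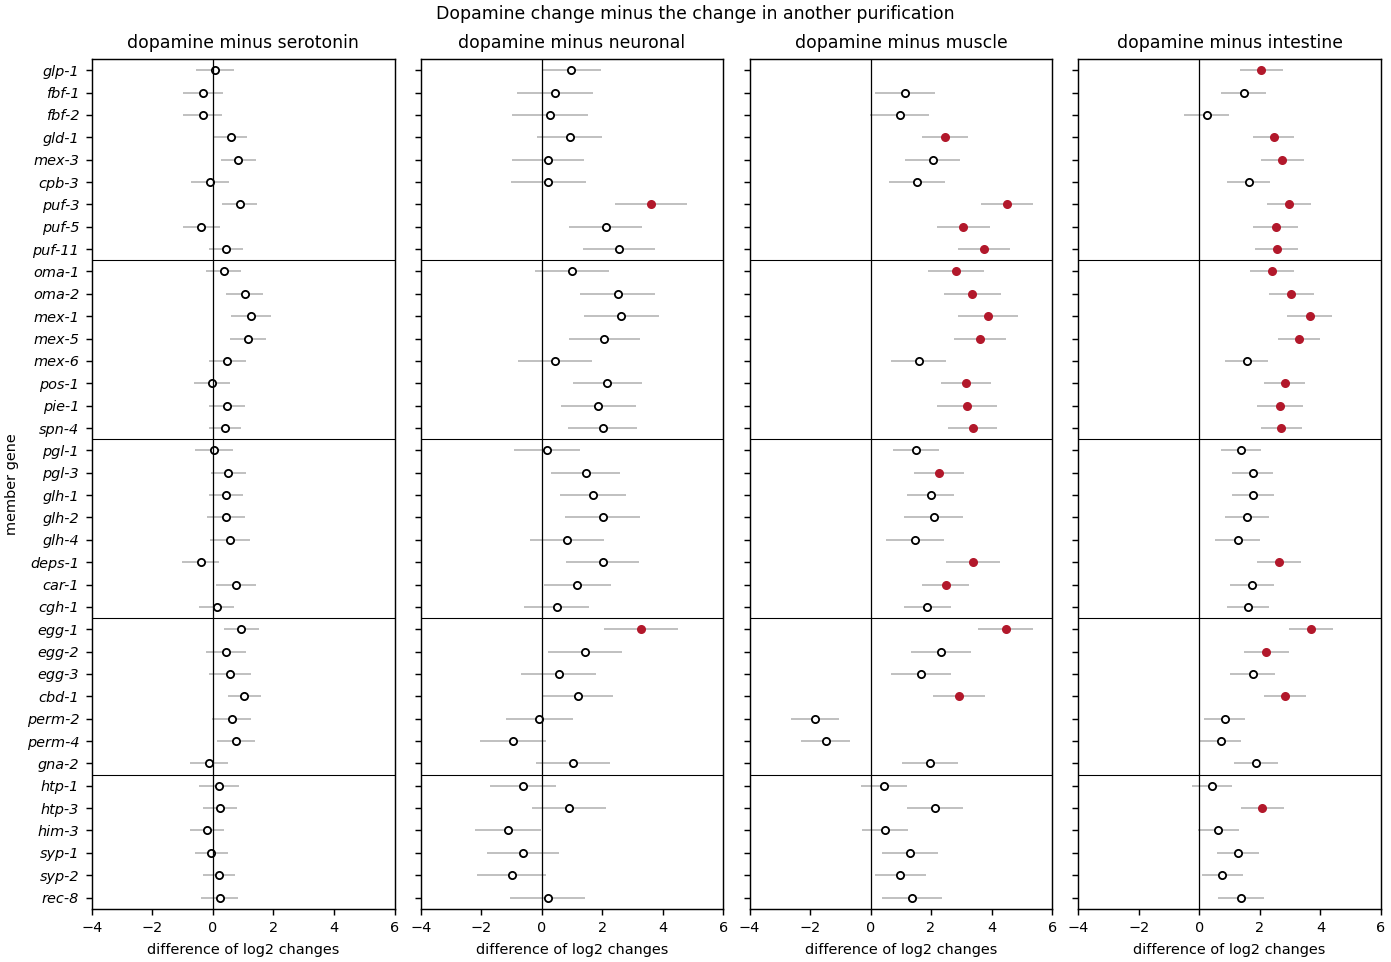
Difference between the dopamine change and the change in each other purification (x axis, log2) for the members (rows, in the order of the heat map), with bars of 1 SE, from the limma fit with the replicate block. Filled red points have an adjusted p below 0.05: 0 against serotonin, 2 against neuronal, 16 against muscle and 18 against intestine.

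The authors also deposited a ratio of TRAP over input for each replicate, on a scale of their own. By the authors' deposited table, a total of 15 members had a ratio of at least 2 in both dopamine replicates, as 9.23% of all genes listed in both had, and 15 had it in both serotonin replicates, as 10.4% of all genes had. By that table no member had it in both replicates of the neuronal, muscle or intestine purification, where 28.9%, 13.9% and 5.04% of all genes had. In the authors' deposited table the dopamine ratios of egg-1 were 17.2 and 11.3, and those of mex-1 were 30.5 and 7.499. By their headers, the authors' deposited lists of dopamine-enriched and serotonin-enriched genes each left out genes detected likewise in the other purification. Of the 564 genes in the dopamine list 1 was a member, mex-3, with an average enrichment of 3.09 in the authors' deposited table. Of the 756 genes in the serotonin list 1 was a member, glp-1, at 2.68. None was in the neuronal, muscle or intestine lists.

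Other genes of the germline program were counted beside the members in the dopamine purification. Their lists, too, were chosen with earlier results of these data known. With the block 10 of 26 other oocyte and germline RNA genes rose and 2 fell, 9 of 14 other oocyte surface and egg activation genes rose and none fell, and 4 of 32 other meiosis genes rose and 2 fell. Their median changes were 0.97, 1.35 and 0.16. cpg-1, an eggshell chondroitin proteoglycan, had 58.4 and 60.97 RPKM in dopamine TRAP, against 3.58 and 4.01 in dopamine input, and cpg-2 had 142 and 132 RPKM in the TRAP pair, against 35.1 and 24.1 in the inputs. htp-2, the near copy of htp-1, fell by 1.47.

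Genes of other cell types also moved in the dopamine purification. The counts of genes that rose or fell are from the blocked fit, where 8.44% of all genes rose and 30.5% fell. Yolk genes rose in 5 of 6 cases and summed to 212 and 59.8 RPKM in dopamine TRAP, against 23.3 and 31.0 in dopamine input. Sperm markers rose in 5 and fell in 4 of 28 cases, and summed to 2621 and 1990.4 RPKM in the TRAP pair, against 5389 and 3498 in the inputs. Somatic gonad markers rose in 1 and fell in 2 of 10 cases, with sums of 96.0 and 131 RPKM in the TRAP pair, against 207 and 112 in the inputs. Muscle markers summed to 5533 and 49004 RPKM in the TRAP pair, against 11994 and 13329 in the inputs. Of these TRAP sums unc-54 alone made up 418 and 33081 RPKM. The median change over the 10 muscle markers was 0.58 and 1.87 in the 2 replicates, with 7 above 0 in both and 2 below 0 in both. Of all 14400 genes tested, 3099 were above 0 in both replicates and 8079 below 0 in both. Intestine markers summed to 7749 and 2622 RPKM in the TRAP pair, against 3686 and 6579 in the inputs. The part of these transcripts in the changes of the members was not tested.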

How the data were processed

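TRAP and whole-animal input libraries of 5 strains were compared, 2 replicates each. Alignment and counting used STAR and HTSeq, per the submitters' processing notes; versions, genome build, annotation and the treatment of reads shared between copies are not given in the sources used here. A gene is in a deposited replicate table where its TRAP or its input value reaches an RPKM of 1. The authors deposited RPKM, read counts per gene with 1 added, and the ratio of TRAP over input counts. Within a replicate the deposited counts of one library are whole reads, and those of the other are a scaled signal from which whole reads were recovered by dividing by a common factor. The deposited ratio was 0.277 to 1.87 times the ratio of the RPKM values, by replicate.

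Members and lists were chosen with earlier results of these data known. Genes present in the tables of both replicates and averaging an RPKM of 1 or more were tested on log2(RPKM + 1) with limma 3.58.1 in R 4.3.3, with trend and Benjamini-Hochberg adjustment over all genes tested at 0.05. edgeR 4.0.16 on the recovered reads was an alternative; 100% of the scaled values lay within 0.6 of a whole multiple of their factor, which says little where the factor is near 1. The scripts were tested on simulated data. SE values in the text are from the fit without the replicate block unless stated; the plot of dopamine against the other purifications uses the blocked fit. The file headers set TRAP and input of a replicate side by side under its number and call them biological replicates, but do not say that both came from one lysate. Over all genes, deviations from the group means, taken for the TRAP and input library of one replicate, correlated at 0.515 in dopamine, 0.676 in serotonin, 0.450 in neuronal, 0.608 in muscle and 0.601 in intestine. Blocked values are therefore printed beside results. In dopamine, however, the deviations had the same sign for 20 of 38 members, where 62.0% of all genes had. Members with the same sign were 34 of 38 in serotonin (69.1% of all genes), 24 of 38 in neuronal (50.0%), 36 of 37 in muscle (73.6%) and 33 of 38 in intestine (56.6%). Nothing else says how independent the replicates are. The p-values measure spread between these samples only. In the fits with complete pooling that is a spread pooled over genes, in place of the gene's own.

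Values in every library were given for the 2 members of each role with the highest mean RPKM, the 5 members with the largest and the 2 with the smallest dopamine change, and members called without the block. Values of mex-6, deps-1, pgl-1, puf-3, htp-3 and glp-1 were added after they were seen. All 38 members matched RefSeq WBcel235 names. Alternatives were RLE scaling, the block, a pseudocount of 0.1, a minimum mean RPKM of 5 or none, edgeR, and leaving out each library; leaving it out with the block, over 2 strains, was added after the data were seen.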

Additional observations from a re-analysis of the deposited data

Results flagged for a closer look

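The median changes over the members lay on opposite sides of 0 in the dopamine purification and in 2 others, in both replicates of each. These differences between medians were not tested. Over all members the medians were 0.41 and 1.16 in dopamine replicates, against -0.69 and -1.78 in muscle replicates, a difference of means of 2.02, and against -1.04 and -1.19 in intestine replicates, a difference of 1.90.

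For the RNA regulators the dopamine medians were 0.99 and 1.71, against -0.74 and -2.02 in muscle (difference 2.73) and -1.07 and -1.23 in intestine (difference 2.50). For the oocyte and embryo RNA-binding genes they were 2.08 and 2.33, against -0.29 and -1.43 in muscle (difference 3.07) and -0.92 and -0.14 in intestine (difference 2.73). For the eggshell genes they were 0.19 and 1.79, against -0.28 and -1.47 in muscle (difference 1.87) and -0.999 and -0.971 in intestine (difference 1.98). The dopamine libraries are shared by all of these. With RLE scaling the median over the replicates was 0.05 for the eggshell genes in muscle and 0.19 for the oocyte and embryo RNA-binding genes in intestine, on the same side of 0 as in dopamine.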

How the results depend on the processing

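The number of calls rests on the replicate block, and 2 replicates limit every p here. The block gave 15 members higher and 3 lower in dopamine (none without it), 15 higher and 6 lower in serotonin (none without it), 3 lower in muscle (none) and 15 lower in intestine (3 without it), and 2, 16 and 18 higher in dopamine against neuronal, muscle and intestine (none without it). With block and RLE scaling together there were 21 higher in dopamine, 19 higher and 2 lower in serotonin, 15 lower in neuronal, 1 higher and 9 lower in muscle, and 23, 21 and 20 higher in dopamine against neuronal, muscle and intestine (11.6%, 11.8% and 9.02% of all genes). RLE scaling alone gave 3 higher against neuronal (1.78% of all genes), 1 higher against muscle (0.663%) and 0 lower in intestine (no gene at all was called), where a pseudocount of 0.1, a minimum mean RPKM of 5 and edgeR each gave 0 too. edgeR gave 1 higher against neuronal (1.38% of all genes).

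With RLE scaling, with or without the block, the median change of the members was 1.43 in dopamine, 0.86 in serotonin and -0.42 in intestine, and the difference against neuronal was 2.51. In intestine the median was -1.28 with a pseudocount of 0.1 and -0.52 with edgeR, and against neuronal it was 2.59 with edgeR. RLE scaling moved the median of all genes to -0.06 in dopamine, -0.09 in serotonin, -0.09 in neuronal, -0.12 in muscle and -0.04 in intestine. The cause of these shifts was not tested.

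Leaving out 1 library at a time, without the block, gave 0 to 4 members higher in dopamine (4 without TRAP replicate 1, 3 without input replicate 2), 0 to 1 lower in neuronal (1 without input replicate 2), 0 to 13 lower in muscle (13 without input replicate 1) and 0 to 10 lower in intestine (7 without TRAP replicate 1, 0 without TRAP replicate 2, 10 without input replicate 2). Against neuronal 0 to 1 were higher (1 without neuronal input replicate 2), and against muscle 0 to 2 (2 without muscle TRAP replicate 2, 1 without muscle input replicate 1). The median ranged from 0.59 to 1.28 in dopamine, -0.055 to 1.30 in serotonin, -1.40 to 1.41 in neuronal, -2.83 to 0.12 in muscle and -2.08 to -0.044 in intestine. Against serotonin it ranged from -0.41 to 1.15, against neuronal from -0.43 to 2.35, against muscle from 0.62 to 3.82 and against intestine from 0.90 to 2.80. The intestine change of perm-4 ranged from -3.88 to 0.17, the second without TRAP replicate 2 (limma adjusted p 0.964). For these unblocked fits the share of all genes called is not given. Their counts of members therefore cannot be set against other genes, and no conclusion about the members is drawn from them. A lone library left in a group is assumed to vary like the others. No fit without 1 library was possible with the block within 1 strain, which leaves 1 pair. In the models over 2 strains it was, and these fits were chosen after seeing the data. They called 0 members against serotonin, 0 to 14 higher and 0 to 2 lower against neuronal, 0 to 23 higher and 0 to 2 lower against muscle, and 4 to 17 higher against intestine (17 without either library of dopamine replicate 1, 7 without dopamine TRAP replicate 2, 11 without dopamine input replicate 2, 4 and 14 without either library of intestine replicate 1 and of replicate 2). Their medians ranged from -0.08 to 0.68, -0.07 to 2.04, 1.48 to 2.80 and 1.52 to 2.37 in the same order.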
